A study of Mus musculus with 10 samples.

Results

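Genes that mark the dentate gyrus and the CA fields of the hippocampus were followed in a comparison of cortex between Chd8 knock-in (KI) and wild-type (WT) mice. They are Dsp, Prox1 and C1ql2 of dentate granule cells, Spink8 and Fibcd1 of CA1 pyramidal cells, and Calb1, Wfs1 and Zbtb20, which mark several fields or are also made in the neocortex. The grouping follows the field that each gene is used to mark within the hippocampus. It does not mean that Prox1 or the other dentate and CA1 genes are absent from neocortical cells. All 8 were found by symbol among the 13661 genes that the authors' deposited table lists by NCBI gene number. They were selected on their standing as markers of these fields and with the fold changes and p-values of this same comparison known, so the values below are a description and carry no test of their own.

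Poly(A) RNA from the cortex of males aged 8 weeks was sequenced in 10 libraries, 5 labelled wild-type and 5 labelled Chd8 KI, each from 1 mouse. The series presents the KI as a model of duplication of the autism-related gene Chd8, which encodes a chromatin remodeller. The sources used here do not state the strain, the structure of the allele, the promoter that drives it or the number of founder lines, nor whether mice shared a litter. Only the authors' deposited table of the KI and WT comparison was analysed here, without values per library, so library depths are unknown and the overlap of single mice between groups cannot be given. The table holds, for each gene, the mean normalised count over all libraries, the log2 fold change and its standard error (SE). Which group is the numerator is not stated in the header. Positive values were taken to mean higher in KI, since Chd8 itself is then higher there, at a log2 fold change of 0.49 (SE 0.10, adjusted p = 0.0044 by DESeq2) in the authors' deposited table. The p-values measure the spread between these libraries, which may be partly technical.

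The hippocampus lies against the inner face of the neocortex, so a dissected cortex can hold some of it. Within the hippocampus, signals run from dentate granule cells through their mossy fibres to CA3 and from there to CA1, with CA2 between CA3 and CA1. Granule and pyramidal cells of each field are told apart by marker genes, several of which are also transcribed at other levels in neocortical neurons or glia. The labelled tissue carried its own markers. All 10 cortical excitatory neuron genes were listed in the authors' deposited table, from Emx1 at a mean normalised count of 418 to Slc17a7, the vesicular glutamate transporter of cortical neurons, at 28078. In bulk RNA, fewer cells of a type and less RNA per cell cannot be told apart.

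None of the 8 hippocampal genes passed the authors' adjusted p of 0.05, a threshold that 0.0732% of all tested genes passed (10 of 13660). Of the 8 genes, 5 had a log2 fold change above 0, against 51.6% of all tested genes. Their median log2 fold change was 0.061, beside a median over all genes of 0.0025. The genes that leaned furthest to KI were Dsp at 0.60 (SE 0.17), Spink8 at 0.35 (SE 0.19) and Zbtb20 at 0.33 (SE 0.25) in the authors' deposited table. These 3 were the only ones of the 8 above 0.3, a value exceeded by 0.871% of all tested genes. The other 5 lay between -0.079 and 0.091, inside the central 95% of all genes, which ran from -0.24 to 0.22. The 95% interval, computed from the deposited fold change and SE, included 0 for 7 of the 8 genes, Dsp being the exception.

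**Figure D1:**
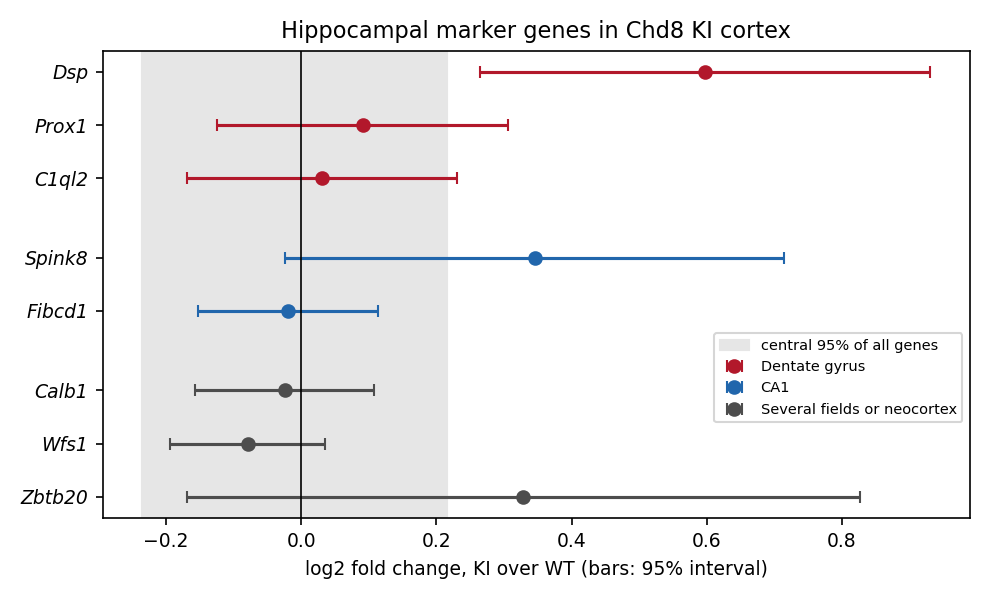
Log2 fold change of KI over WT (horizontal axis) for the 8 hippocampal marker genes, coloured by field. Points are the authors' deposited fold changes, bars are 95% intervals and the grey band spans the central 95% of all genes. Dsp is the 1 gene whose bar does not reach 0, and Spink8 and Zbtb20 lie to the right of the band with bars that reach back past 0.

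Of the dentate gyrus genes, Dsp had the largest fold change of the 8, while Prox1 and C1ql2 came after Spink8 and Zbtb20. Dsp encodes desmoplakin, a plakin that ties intermediate filaments to desmosomal junctions and that in the hippocampus marks dentate granule cells. Its mean normalised count was 146 over all libraries in the authors' deposited table. With equal group sizes, that mean and the fold change imply about 116 in WT and 176 in KI. The KI level was thus 1.51-fold that of WT (95% interval 1.20 to 1.91), and 4 genes of the whole table had a larger log2 fold change. The authors' deposited table gave Dsp an unadjusted p of 4.3e-04, the 15th smallest, and an adjusted p of 0.39 over all genes, which is not past the threshold. It was the 1 gene of the 8 with an unadjusted p under 0.05, a level reached by 3.22% of all tested genes. Its SE was 1.23 times the median SE of the 1935 genes with a mean normalised count within 1.5-fold of its own.

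Prox1 encodes the homeodomain transcription factor that sets and keeps granule cell identity. It had a mean normalised count of 319 and a log2 fold change of 0.091 (SE 0.11) in the authors' deposited table. The part of neocortical cells in this count was not tested. The implied levels were 309 in WT and 329 in KI, a ratio of 1.07 with a 95% interval from 0.918 to 1.24. C1ql2 encodes a secreted C1q-like protein that granule cells release at mossy fibre synapses, where it takes part in recruiting kainate receptors. It stood at a mean normalised count of 308 and a log2 fold change of 0.030 (SE 0.10) in the authors' deposited table. The implied levels were 304 in WT and 311 in KI, a ratio of 1.02 (95% interval 0.889 to 1.17). All 3 dentate genes therefore had a positive fold change, and Dsp was well apart from the other two. The interval of Dsp began at 0.27 on the log2 scale, above the end of that of C1ql2 (0.23) and below that of Prox1 (0.31). These genes were measured in the same libraries, so their errors are not independent, and the difference between them was not tested.

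The upstream sequences of the dentate genes are shown as a description of this field's markers, and nothing in these data ties them to the fold changes. They are the 250 bases before the annotated gene start from RefSeq (GRCm38.p6), 5′ to 3′ on the gene's strand, with each CANNTG in capitals. This E-box motif, which reads the same on both strands, is bound by basic helix-loop-helix factors such as the NeuroD proteins of granule cells. The windows are chr13:38151044-38151293 on the plus strand for Dsp, chr1:190170828-190171077 on the minus strand for Prox1 and chr1:120340332-120340581 on the plus strand for C1ql2.
Dsp: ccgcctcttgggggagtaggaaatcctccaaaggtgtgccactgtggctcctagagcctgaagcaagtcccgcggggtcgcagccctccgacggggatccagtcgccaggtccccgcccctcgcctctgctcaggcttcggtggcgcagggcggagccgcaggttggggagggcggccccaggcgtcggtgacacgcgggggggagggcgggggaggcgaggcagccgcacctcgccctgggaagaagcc
Prox1: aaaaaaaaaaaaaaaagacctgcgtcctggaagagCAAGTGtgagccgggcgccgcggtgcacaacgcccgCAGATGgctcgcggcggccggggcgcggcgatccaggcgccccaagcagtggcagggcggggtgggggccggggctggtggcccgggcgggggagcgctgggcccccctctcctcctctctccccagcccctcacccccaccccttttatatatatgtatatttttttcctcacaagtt
C1ql2: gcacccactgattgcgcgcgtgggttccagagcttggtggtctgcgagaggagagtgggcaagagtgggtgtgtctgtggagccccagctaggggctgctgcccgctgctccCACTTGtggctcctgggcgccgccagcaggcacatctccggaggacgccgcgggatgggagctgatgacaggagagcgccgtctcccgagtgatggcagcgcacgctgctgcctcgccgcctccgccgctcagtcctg
The Dsp window held 0 E-boxes, the Prox1 window 2 and the C1ql2 window 1, whereas 66.2% of the 32851 RefSeq promoter windows of this length held at least 1. All 3 windows were rich in CG dinucleotides, with 22 in Dsp and 20 each in Prox1 and C1ql2 against a median of 6 over all windows. The GC content was 72.4% for Dsp, 64.8% for Prox1 and 68.8% for C1ql2, against a median of 52.4%. RefSeq windows were found for 6 of the 8 genes, not for Spink8 or Calb1, and Prox1 has a further start whose window held 0 E-boxes. A match is only a match of letters, and no binding was measured in these samples.

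The CA1 genes gave unequal values. Spink8 encodes a Kazal-type serine peptidase inhibitor that marks CA1 pyramidal cells. It was the least abundant of the 8 genes by count, with a mean normalised count of 52.5 and a log2 fold change of 0.35 (SE 0.19) in the authors' deposited table. The implied levels were 46.3 in WT and 58.8 in KI, a ratio of 1.27 (95% interval 0.984 to 1.64). Fibcd1 encodes a membrane receptor that binds acetylated sugars and marks dorsal CA1. Its mean normalised count was 739 and its log2 fold change -0.019 (SE 0.068) in the authors' deposited table. The implied levels were 744 in WT and 734 in KI, a ratio of 0.987, with a 95% interval from 10% lower to 8% higher. The better measured CA1 gene thus lay close to 0, and the interval of Spink8 was 2.77 times as wide on the log2 scale.

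Genes shared by several fields or with the neocortex mostly lay close to 0. Calb1 encodes the calcium buffer calbindin of granule cells and CA1 cells, and also of neocortical interneurons and upper-layer neurons. It had a mean normalised count of 3144 and a log2 fold change of -0.024 (SE 0.067), with implied levels of 3170 in WT and 3117 in KI. Wfs1 encodes wolframin, an endoplasmic reticulum membrane protein of CA1 and of upper-layer neocortical neurons. Its mean normalised count was 2830 and its log2 fold change -0.079 (SE 0.059), with implied levels of 2908 in WT and 2752 in KI. Both sets of values are from the authors' deposited table. Their intervals, 0.897 to 1.08 for Calb1 and 0.874 to 1.03 for Wfs1 as ratios, end at 8% and 3% above the WT level. Zbtb20 encodes a zinc finger repressor needed for hippocampal pyramidal cell identity and also made in astrocytes. It stood at a mean normalised count of 78.2 and a log2 fold change of 0.33 (SE 0.25) in the authors' deposited table, with implied levels of 69.3 in WT and 87.0 in KI. Its interval was the widest of the 8 genes (ratio 0.890 to 1.77), and its SE was 1.40 times the median of genes with a similar count. The 12 markers of astrocytes, the other cells named here for Zbtb20, had 6 positive and 6 negative values and a median log2 fold change of -0.0038.

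Abundance divided the 8 genes in the same way as the fold change did. The 3 with the lowest mean normalised counts, Spink8, Zbtb20 and Dsp (146 at most), had log2 fold changes from 0.33 to 0.60 and SEs from 0.17 to 0.25. The 5 with mean normalised counts of 308 or more had log2 fold changes from -0.079 to 0.091 and SEs from 0.059 to 0.11. Among those 5 genes, 2 values were positive and 3 negative, with a median of -0.019, so the positive median of the 8 genes rested on the 3 with low counts. This division by abundance was made after the values were seen. Over the whole table, log2 fold changes had an SD of 0.18 across genes with a mean normalised count under 150 and of 0.070 across genes at 300 or more. The part that this spread has in the values of the 3 genes was not tested.

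**Figure D2:**
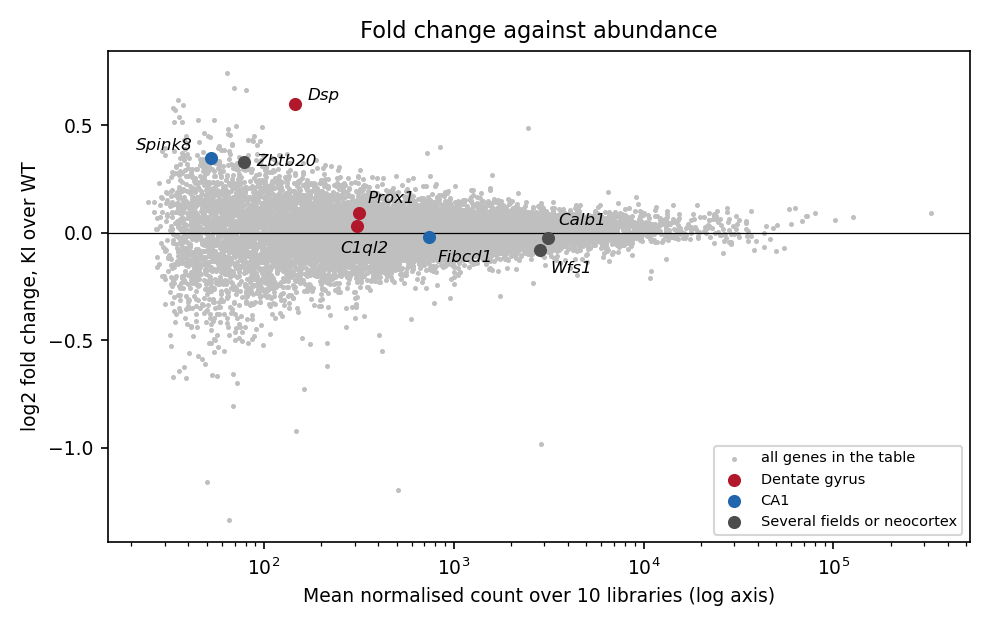
Log2 fold change of KI over WT (vertical axis) against the mean normalised count over all libraries (horizontal log axis) for every gene of the authors' deposited table, with the 8 hippocampal markers coloured by field. Dsp, Spink8 and Zbtb20 lie at the left, at counts of 146 or less, and the other 5 markers lie near 0 at counts of 308 or more.

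Per kilobase of the longest annotated transcript, a scale on which levels of different genes can be set side by side, Wfs1 (747) and Calb1 (745) were the highest, in normalised counts per kilobase. Fibcd1 (156) and C1ql2 (154) followed, then Spink8 (68.4), Prox1 (40.3), Dsp (15.2) and Zbtb20 (2.91). On this scale Wfs1 and Calb1 were nearly level, as were Fibcd1 and C1ql2, and no spread over libraries is at hand to order them. The places of Zbtb20, Prox1 and Calb1 depend on the transcript used. The annotation used for counting is not stated, and whether the low Zbtb20 count covers the whole gene was not tested. The next longest transcript has 3086 bases for Zbtb20 in place of 26901, which would give 25.3 per kilobase. It has 3285 bases for Prox1 in place of 7913, which would give 97.0 and put it above Spink8 (82.5 on its own next longest). For Calb1 it has 736 bases in place of 4222, which would give 4271, well above Wfs1 (862 on its own next longest). The exons of Dsp share 5.17% of their bases with Gm10129 on the other strand and those of Prox1 share 1.59% with Prox1os in GENCODE M21, and whether reads were counted by strand is not stated, so reads there cannot be told apart.

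**Figure D3:**
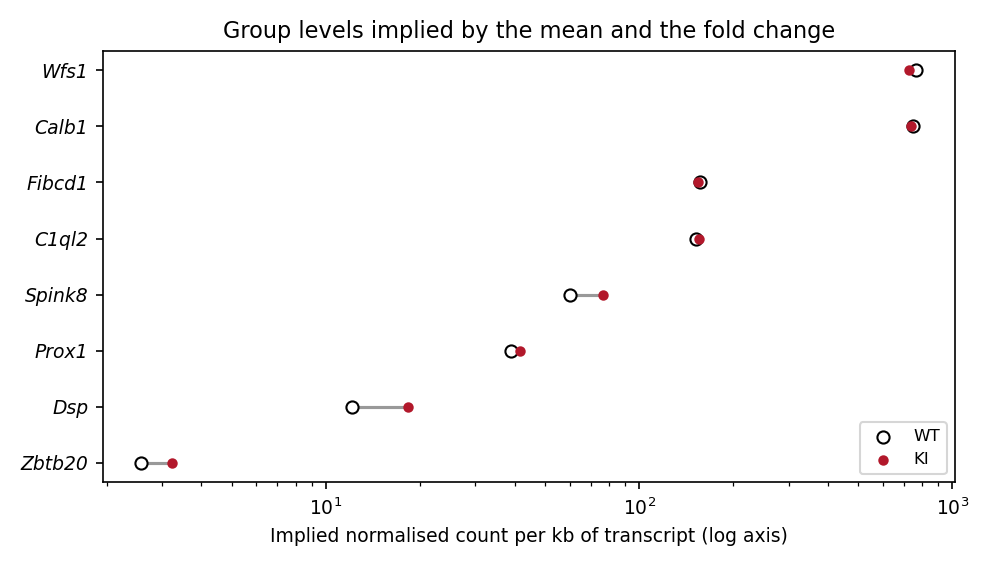
Levels of the 8 genes in WT (open circles) and KI (filled circles), in normalised counts per kilobase of the longest transcript on a log axis. They are computed from the mean over all libraries and the deposited fold change, and carry no error. Only Dsp, Spink8 and Zbtb20, which are among the 4 lowest, show circles clearly apart.

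Dsp (gene 109620) lies on chromosome 13 from 38151294 to 38198577. On chromosome 1 are Prox1 (19130, 190118035 to 190170827) and C1ql2 (226359, 120340582 to 120343174). Spink8 (78709) lies on chromosome 9 from 109812203 to 109826628, and Fibcd1 (98970) on chromosome 2 from 31813290 to 31846964. Calb1 (12307) is on chromosome 4 from 15881264 to 15906709, Wfs1 (22393) on chromosome 5 from 36966104 to 36988982, and Zbtb20 (56490) on chromosome 16 from 42875689 to 43634392. All 8 are protein-coding, with coordinates from RefSeq on GRCm38, the assembly behind mm10, and values are for whole genes. None lies on chromosome 14, where the native Chd8 gene is, and any linkage to the KI allele was not tested.

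Longer lists of field markers placed the 8 genes among others of the same cells. For dentate granule cells, 13 of 14 genes were tested, of which 10 were positive and 3 negative, with a median log2 fold change of 0.046 beside 0.0025 for all genes. Without the 8 genes, the dentate list held 7 positive and 2 negative values with the same median of 0.046. Among these, Lct, encoding lactase, stood at 0.13 (SE 0.17), Glis3, a zinc finger transcription factor, at 0.13 (SE 0.18), and Il16 at 0.064 (SE 0.14) in the authors' deposited table. More abundant genes of this list gave tighter values there. Fam163b stood at 0.043 (SE 0.047), Rfx3, a transcription factor of ciliary genes, at 0.067 (SE 0.076) and C1ql3 at -0.0023 (SE 0.049). The part of neocortical neurons in these values was not tested. The negative value furthest from 0 was that of Npnt, an extracellular matrix ligand, at -0.079 (SE 0.080) in the authors' deposited table. No dentate gene passed the threshold in either direction, and Tdo2 was not among those tested. The dentate values thus leaned to KI in number, by 3.2% in level at the median, while 12 of the 12 genes other than Dsp lay less than 1 SE from 0.

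CA1 genes were similar, with 6 of 6 tested, 4 positive and 2 negative, and a median log2 fold change of 0.033. Without the 8 genes, the CA1 list held 3 positive and 0 negative values with a median of 0.056, above the 0.046 of the dentate list without them. These 3 CA1 genes were Mpped1 at 0.061 (SE 0.053), Ccn3, a secreted matricellular protein, at 0.056 (SE 0.091) and Pou3f1, a POU-domain transcription factor, at 0.0098 (SE 0.063) in the authors' deposited table. The 3 had mean normalised counts from 1002 to 4399. Cortical excitatory neuron markers had a median of 0.051, and the part of neocortical neurons in the CA1 values was not tested. None of the 6 CA1 genes passed the threshold.

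CA2 and CA3 genes leaned the other way. Of the 7 CA2 genes tested of 8, 6 were negative and 1 positive, with a median log2 fold change of -0.12 and none past the threshold. Map3k15 at -0.21 (SE 0.24) and Ntf3 at -0.16 (SE 0.22) had mean normalised counts of only 37.6 and 43.3. With a count minimum of 50 the median was -0.094. Amigo2 stood at -0.094 (SE 0.11) and Necab2 at -0.079 (SE 0.065). Cacng5, an auxiliary subunit of AMPA receptors, stood at -0.30 (SE 0.12) and Pcp4, a calmodulin regulator, at -0.12 (SE 0.061) in the authors' deposited table. These 2 had an unadjusted p under 0.05 by DESeq2, at 0.011 for Cacng5 and 0.042 for Pcp4 in the authors' deposited table. That level was reached by 1 of 13 dentate genes, 0 of 6 CA1 genes and 3.22% of all tested genes. The lists are short and were chosen with earlier results known, so these counts do not set CA2 apart. Rgs14, which restrains synaptic plasticity in CA2, was the positive one at 0.038 (SE 0.059). The CA3 list had 9 of 10 genes tested, 3 positive and 6 negative, with a median of -0.054. Its values ran from -0.12 for Bok (SE 0.084) to 0.12 for Homer3 (SE 0.12), and Grik4, a kainate receptor subunit of CA3, stood at 0.054 (SE 0.085) in the authors' deposited table. Hilar mossy cell genes numbered 3 tested of 4, with Calb2 at -0.16 (SE 0.13), Drd2 at -0.056 (SE 0.10) and Ajap1 at 0.0096 (SE 0.074). Calb2 is also on the interneuron list, whose 10 genes had 4 positive and 6 negative values with a median of -0.012. Pcp4 and Drd2 are also made in the striatum, whose 11 markers were all negative (median -0.091, from -0.15 to -0.043), and the part of striatal tissue in these values was not tested. The differences between fields were not tested.

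Genes of newborn granule cells and neuroblasts, a population of the dentate gyrus and of the olfactory stream, had 5 of 7 genes tested, 4 positive and 1 negative, with a median of 0.087. Dcx, which encodes doublecortin of migrating neurons, stood at 0.14 (SE 0.14), Sox11 at 0.11 (SE 0.10), Sox4 at 0.087 (SE 0.064), Neurod1 at 0.015 (SE 0.13) and Igfbpl1 at -0.16 (SE 0.22) in the authors' deposited table. None passed the threshold.

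The partners of Dsp and C1ql2 were read in the same way. Of 11 desmosome genes 7 were tested, with 4 positive and 3 negative values and a median log2 fold change of 0.057. Apart from Dsp they ran from -0.11 (SE 0.059) for Jup, encoding plakoglobin, to 0.14 (SE 0.15) for Dsg2, a desmosomal cadherin, in the authors' deposited table. Pkp2 stood at 0.057 (SE 0.10), Dsc3 at 0.096 (SE 0.23), Pkp4 at -0.010 (SE 0.037) and Evpl at -0.023 (SE 0.16) there. Dsp, at 0.60, was the 1 desmosome gene with an unadjusted p under 0.05. The C1q-like family and its synaptic partners had 7 of 8 genes tested, 5 positive and 2 negative, with a median of 0.047. C1ql1 stood at -0.20 (SE 0.14), the adhesion receptor Adgrb3 at 0.049 (SE 0.061), the kainate receptor subunit Grik2 at 0.061 (SE 0.074) and the neurexin Nrxn3 at 0.047 (SE 0.085) in the authors' deposited table. None of these genes passed the threshold.

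Markers of tissue that adjoins the hippocampus had mostly negative values, as the CA2 and CA3 lists did. Thalamus markers had 8 of 10 tested values negative (median log2 fold change -0.44, mean normalised counts from 65.7 to 786), and 3 passed the threshold as lower in KI, Tnnt1 at -1.34 (SE 0.26), Tcf7l2 at -0.92 (SE 0.19) and Prkcd at -1.20 (SE 0.29) in the authors' deposited table. Choroid plexus markers, of a tissue attached along the hippocampal fimbria, had 9 of 9 values negative (median -0.27, counts from 64.0 to 13144), with none past the threshold. Tmem72, a choroid plexus gene outside this list, went the other way at 0.67 (SE 0.21, adjusted p = 0.61 by DESeq2). It ranked 2 by log2 fold change over the whole table, at a mean normalised count of 69.1. As 1 gene named for its sign, Tmem72 does not describe the choroid plexus genes as a set. Of the 9 listed genes, 6 were lower with an unadjusted p under 0.05 by DESeq2, which 3.22% of all tested genes had in either direction. Meningeal markers had 14 of 14 values negative (median -0.22, counts from 58.9 to 1762), with Igf2 past the threshold at -0.29 (SE 0.059) in the authors' deposited table. Of the genes in these 3 lists, Gbx2 was the 1 not among those tested. Over all 13660 tested genes, 6611 had negative values and 9 passed the threshold as lower in KI. Cortical excitatory neuron markers had 9 of 10 positive values with a median of 0.051, close to the dentate median of 0.046, and the 6 layer 2/3 markers had a median of 0.045. The part that dissection boundaries or tissue makeup have in the hippocampal values was not tested.

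By field, dentate (10 of 13) and CA1 (4 of 6) genes had mostly values above 0, and CA3 (3 of 9) and CA2 (1 of 7) genes mostly values below 0. Over all tested genes, 51.6% were above 0. Cortical excitatory neuron genes (9 of 10, median 0.051) and layer 2/3 genes (4 of 6, median 0.045) also had mostly values above 0. The lean of dentate (median 0.046) and CA1 genes (median 0.033) was therefore not particular to these fields. Genes of the striatum (0 of 11, median -0.091), hilar mossy cells (1 of 3, median -0.056) and thalamus (2 of 10, median -0.44) had mostly values below 0. The same held for choroid plexus (0 of 9, median -0.27) and meninges (0 of 14, median -0.22). The lean of CA2 (median -0.12) and CA3 genes (median -0.054) was therefore not particular to these fields either. Dentate and CA1 cannot be put in order, since without the 8 genes the counts were 7 of 9 and 3 of 3. At the median, dentate genes were 3.2% and CA1 genes 2.3% above the WT level, and CA3 genes were 3.7% and CA2 genes 8.2% below it. The CA2 value was that of Pcp4, which is also made in the striatum. Under the alternative settings, the median log2 fold change ran from -0.13 to -0.078 for CA2 and from -0.067 to -0.026 for CA3. It ran from 0.032 to 0.055 for dentate and from 0.0098 to 0.056 for CA1 genes. No gene of these 4 lists passed the authors' threshold, and the deposited precision allows for Prox1 anything from 8% lower to 24% higher and for C1ql2 from 11% lower to 17% higher. The SEs describe each gene alone, and genes of 1 field share their cells and libraries, so the count of genes in a field is not a count of independent observations.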

How the data were processed

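The values are those of the authors' deposited table of 1 comparison, 5 WT and 5 KI libraries. Per the submitters' processing notes, the tools were Trimmomatic 0.39, HISAT2 2.1.0, featureCounts 2.0.0 and DESeq2 1.26.0, on build mm10. The sources used here do not state the annotation, the strand setting, any filter or the model formula. Per the file headers, the deposited columns are a mean normalised count over all libraries (a signal value), a log2 fold change with its standard error on the log2 scale, a Wald score, a p-value and an adjusted p-value. Recomputed Wald scores and Benjamini-Hochberg adjusted p-values over the 13660 genes with a p-value equalled the deposited ones. The lowest mean normalised count was 24.4, so scarcer genes were not analysed here. Depth per library is unknown.

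RefSeq (GRCm38.p6) named 13497 of 13661 gene numbers, and GENCODE M21 gave a transcript length for 13098. Intervals are 95% normal intervals. Group levels were computed from the mean and the fold change for equal groups. The length trend was a lowess curve (span 0.3) of log2 fold change on log2 length (statsmodels 0.14.6, Python 3.11.15), tested on simulated data. Every marker list and the 8 genes were chosen with earlier results of these data known, from textbook knowledge. All 8 genes and every gene of the field, desmosome and C1q-like lists could be named, and up to 3 genes by smallest p in other lists. Beside these, Emx1 and Slc17a7 were named for their counts, Gm10129 and Prox1os for overlap and Tmem72 for its opposite sign. The design foresaw a count model if counts per library were given, and the authors' test otherwise, which applied. Alternatives were other thresholds, count minimums of 50 and 200, centring, the length trend, a weighted mean and lists without certain genes.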

Additional observations from a re-analysis of the deposited data

How the results depend on the processing

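No paired analysis was possible because the deposited table holds no values per library, and for the same reason no library could be left out. At an adjusted p of 0.01 the count of called genes over the whole table was 6 in place of 10, at 0.1 it was 10, and with mean normalised counts of at least 50 and 200 it was 10 and 7. None of the 8 hippocampal genes passed under any of these settings, and the adjusted p of Dsp was 0.37 at the minimum of 50, while at 200 Dsp, Spink8 and Zbtb20 drop out. The median log2 fold change of the 8 genes ran from -0.019 to 0.091 over 7 alternatives. It was negative only at the count minimum of 200, was 0.030 without Dsp and 0.014 as a mean weighted by the inverse squared SE. The dentate median stayed between 0.032 and 0.055, CA1 between 0.0098 and 0.056, CA2 between -0.13 and -0.078 and CA3 between -0.067 and -0.026. Leaving the 8 genes out of the field lists was chosen after seeing the data. Across genes, which are not independent replicates, log2 fold change and transcript length had a Spearman correlation of 0.236. With that trend removed Dsp stood at 0.55, Spink8 at 0.39, Zbtb20 at 0.23 and Prox1 at 0.058, and no gene of the 8 changed sign. Library depths are unknown, and the SE, which sets what can be resolved, was 0.17 to 0.25 for Dsp, Spink8 and Zbtb20 and 0.059 to 0.11 for the other 5.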
